A study of Mus musculus with 42 samples.

Results

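RNA polymerase II (Pol II) occupancy was compared between bone marrow-derived macrophages without Nur77 (BMDM-Nur77-KO) and wild-type macrophages (BMDM-WT) after 18 h of lipopolysaccharide (LPS), the endotoxin of the bacterial outer membrane. The libraries were chosen by their titles, which name the genotype, the 18 h LPS treatment and the Pol II antibody, and they were 6 of the 42 libraries of the series, 3 for each genotype. Bone marrow came from male C57Bl6/J mice aged 6 to 12 weeks and was cultured for 7 days with L929-conditioned medium before LPS was given at 100 ng/ml. The KO carries a whole-body deletion of Nr4a1, the gene of Nur77, made by crossing floxed mice with mice that express Cre from the CMV promoter, and the controls were their WT littermates. The methods describe KO mice that no longer carried Cre while the genotype label of the KO libraries reads cre, so an effect of Cre cannot be told apart from that of the deletion in these libraries. The labels do not say which animal or culture a library came from, and the p-values measure the spread between these libraries, which may be technical. Of 21884 protein-coding genes, 12795 had Pol II regions in enough libraries to be tested and 8808 had none in any of the 6 libraries.

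Pol II transcribes protein-coding genes, and its occupancy along a gene rises with the number of polymerases that initiate there and with the time they spend paused or elongating. LPS is sensed by Toll-like receptor 4, which activates NF-kB, AP-1 and interferon regulatory factors, first at immediate-early genes and later at genes of cytokines, antiviral effectors and antigen presentation. Nur77 is a nuclear receptor that is induced early in this response and binds DNA as a monomer at the NBRE motif, and it is known for limiting inflammatory gene expression in macrophages.

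The 6 Pol II libraries held 26.2 to 35.1 M tags (M, mega), with 78.8 ± 1.17% of the tags in called regions in KO and 79.7 ± 0.36% in WT (mean ± SD, n = 3 each), and an exact permutation test of this share, which cannot go below a p of 0.1 with 3 against 3, gave a two-sided p of 0.3. A gene's value is the number of tags per 10 M tags of the library in regions called by the authors, from 500 bp before the gene to 500 bp past it, called normalized tags here. A gene without a region is listed at 0, which means that no region passed the search and not that reads were absent. No ratio is given against a group listed at 0, and a log2 difference against such a group depends on the 10 tags added before the log and is no bound. Across genes, log2 values correlated with r of 0.991 to 0.992 within KO and 0.975 to 0.978 between KO and WT, over genes that are not independent replicates. The median log2 value per library was 7.71 to 7.83 in KO and 7.91 to 7.92 in WT, so the groups did not overlap in this overall level, and results are therefore given both as deposited and with every library centred on its own median. In bulk libraries, fewer cells of a type and less Pol II per cell cannot be told apart.

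Nr4a1 itself (ENSMUSG00000023034, chr15:101254269-101274795 in mm10) was listed at 0 in the 3 KO libraries at 18 h and at 7.46, 5.98 and 0 normalized tags in WT. The gene was thus close to the lower limit of the assay at this time in both genotypes, and 1 WT library was as low as the KO libraries. The difference of -0.49 on the log2(normalized tags + 10) scale passed the test as deposited (adjusted p = 0.046) and not after centring (adjusted p = 0.15), and 18 h values are therefore a weak check of the labels. In untreated cells Nr4a1 stood at 78.0 normalized tags in KO and 195 in WT, a log2 difference of -1.22 (adjusted p = 0.00015), so polymerase was found over the annotated locus in KO. At 1 h of LPS the order was the other way, with 36.4 ± 2.77 tags in KO and 26.3 ± 3.74 in WT (mean ± SD, n = 3 each), a log2 difference of 0.36 in limma that did not pass (adjusted p = 0.10). Which exons the deletion removes was not analysed here.

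A total of 394 genes were called different between KO and WT at 18 h (adjusted p under 0.05 and a log2 change over 1), which is 3.08% of the genes tested. In KO, 204 were higher and 190 were lower. With centring, 401 genes (3.13%) were called, of which 279 were higher, so the share of higher calls moved from 51.8% to 69.6%. All 204 genes called higher as deposited were also called after centring, against 122 of the 190 called lower. The values of KO and WT did not overlap for 384 of the 394 called genes, where 44.4% of all tested genes showed no overlap. Without the size threshold, 2679 genes (20.9%) passed the adjusted p as deposited, with 7.56% of all tested genes higher and 13.4% lower in KO, and after centring 2949 genes passed, with 15.3% higher and 7.75% lower. The median change over all tested genes was -0.10 as deposited and 0.035 after centring. Of the called genes, 67 genes were higher and 59 lower by more than 1.5 on the log2 scale, and 6 were higher and 9 lower by more than 3. The input libraries, of which each genotype had 1 at 18 h, listed 38.2% of the tested genes in KO and 85.0% in WT, and the input of a gene's own genotype was at least as high as its Pol II value for 9 of the genes called higher (4.41%) and 25 of those called lower (13.2%), against 6.72% of all tested genes. With regions that overlap an input region left out, the remaining regions held a mean of 5.02% of KO tags and 5.13% of WT tags, and 55 of 121 named genes could be tested. Of these, 15 turned direction (C1qa, Cd86, Ciita, Fcgr2b, Gm4841, H2-Eb1, Ifi214, Igf1, Itgam, Ly96, Mki67, Nfkb1, Slamf1, Srebf1 and Trim30b) and 18 kept it but missed the threshold. The part of input in the other differences was not tested.

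**Figure D1:**
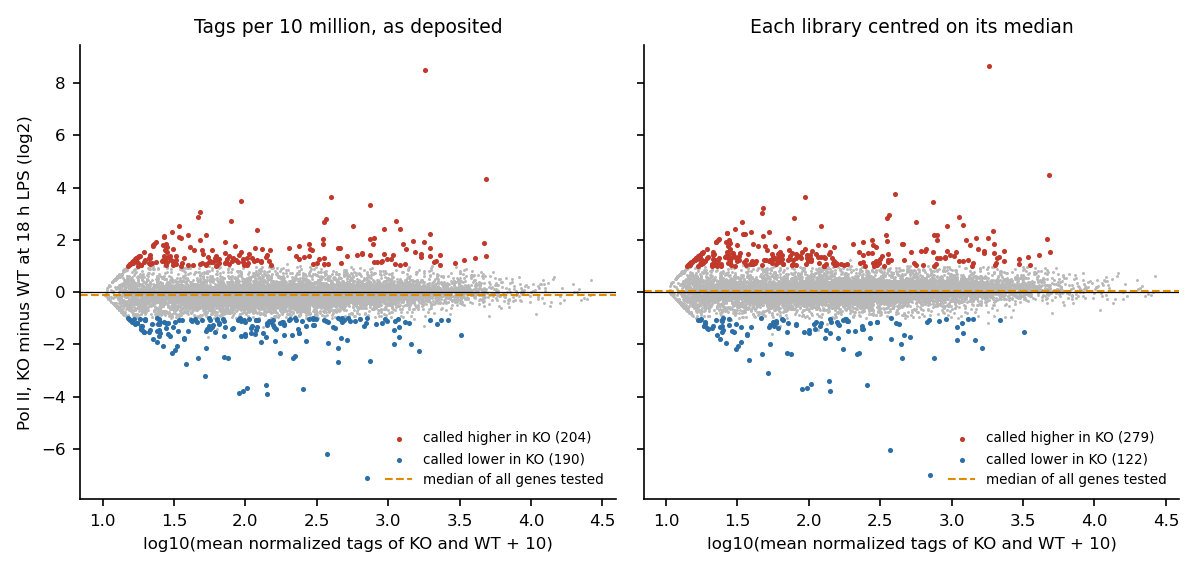
Pol II change between KO and WT at 18 h (log2, vertical) against the mean level of both groups (log10 of normalized tags + 10, horizontal) for 12795 genes, as deposited on the left and after centring each library on the right. Red and blue points are genes called higher (204 and 279) and lower (190 and 122) in KO, and the dashed line is the median of all tested genes.

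The largest difference was at Ifi202b, an interferon-inducible member of the Ifi200 family of nucleic acid-binding proteins that antagonizes the DNA sensor Aim2. It held 3650, 3637 and 3582 normalized tags in the KO libraries and was listed at 0 in the 3 WT libraries, so the groups stood far apart. KO was also above WT without LPS, where the log2 change was 5.56 (adjusted p = 1.7e-13), against 8.51 at 18 h (adjusted p = 1.2e-16), both of which depend on the 10 tags added before the log. At the other end stood Trim12a, an antiviral ubiquitin ligase of the Trim5 family, which was listed at 0 in the 3 KO libraries and at 1355, 1397 and 1423 normalized tags in WT. Cd5l, which encodes a secreted scavenger protein of macrophages, was likewise listed at 0 in the 3 KO libraries and at 755.6, 679.4 and 737.9 in WT. Both were already lower in untreated KO cells, with log2 changes of -3.40 for Trim12a, again listed at 0 in KO, and -5.39 for Cd5l. The Ifi200 and Trim5 families consist of close paralogs, and reads that map to more than 1 copy make the assignment to a single member uncertain. The input libraries held 287 tags over Ifi202b in KO and 174 in WT, whereas Trim12a and Cd5l had no input region in KO and 74.4 and 92.98 tags in the WT input. In mm10 the genes span chr1:173962568-173982744 (Ifi202b), chr7:104299894-104315466 (Trim12a) and chr3:87357881-87371073 (Cd5l).

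The promoters of these genes and of Il6, the inflammatory cytokine described below, are shown as the sequence windows next to the largest differences, as 250 bases that end at the base before the RefSeq gene start on GRCm38.p6, the assembly behind mm10, each on the strand of its gene. Ifi202b lies at chr1:173982845-173983094 on the minus strand, Trim12a at chr7:104315496-104315745 on the minus strand, Cd5l at chr3:87357631-87357880 on the plus strand and Il6 at chr5:30012864-30013113 on the plus strand. Capitals mark matches on either strand to the AP-1 motif TGANTCA or the NF-kB motif, taken as GGG and TTTCC with any 2 bases between them, and windows without capitals held no match to these, to the NBRE AAAGGTCA or to the interferon response element core, taken as GAAA and GAAA with any 2 bases between them.
Ifi202b: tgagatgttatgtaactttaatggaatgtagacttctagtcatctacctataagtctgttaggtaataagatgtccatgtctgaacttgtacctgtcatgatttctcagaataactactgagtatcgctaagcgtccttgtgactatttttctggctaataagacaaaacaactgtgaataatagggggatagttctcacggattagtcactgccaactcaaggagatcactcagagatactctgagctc
Trim12a: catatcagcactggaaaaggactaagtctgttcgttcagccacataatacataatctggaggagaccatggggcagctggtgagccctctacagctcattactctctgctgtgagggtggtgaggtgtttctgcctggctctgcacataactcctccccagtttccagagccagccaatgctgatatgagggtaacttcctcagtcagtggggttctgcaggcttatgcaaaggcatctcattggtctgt
Cd5l: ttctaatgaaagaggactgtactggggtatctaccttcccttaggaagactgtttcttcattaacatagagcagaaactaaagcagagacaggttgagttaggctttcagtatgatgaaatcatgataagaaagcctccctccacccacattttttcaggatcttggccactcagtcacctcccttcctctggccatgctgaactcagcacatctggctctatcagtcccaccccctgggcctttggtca
Il6: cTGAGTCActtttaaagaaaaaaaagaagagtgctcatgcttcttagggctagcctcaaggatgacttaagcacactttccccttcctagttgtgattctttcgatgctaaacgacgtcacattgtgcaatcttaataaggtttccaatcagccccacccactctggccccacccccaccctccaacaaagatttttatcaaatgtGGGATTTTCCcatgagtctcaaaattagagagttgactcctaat
In Il6 the AP-1 match TGAGTCA begins 249 bases before the start and the NF-kB match GGGATTTTCC begins 44 bases before it. In windows of 300 bases, which also hold the first 50 transcribed bases, the AP-1 letters were found in 6.40% of the 9978 tested genes with a promoter in the table. Among genes called higher in KO they were found in 19 of 149 (12.8%), and among genes called lower in 11 of 146 (7.53%). The NBRE letters were found in 1.26% of all tested genes, in 0 of the 149 higher and in 2 of the 146 lower. The NF-kB letters stood at 2.08%, 2.68% and 3.42% and the interferon response element core at 4.03%, 4.70% and 4.11% in all tested, higher and lower genes. Over all 32851 windows of the table the shares were 7.81% for AP-1, 1.51% for NBRE, 1.63% for NF-kB and 3.44% for the interferon response element core. These shares describe letters in the windows and were not tested.

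Of the genes with the largest increases in KO, several had no called difference in untreated cells. Dcbld2, a transmembrane receptor with a discoidin domain, held 708.9, 728.8 and 744.6 tags in KO and 38.61, 46.2 and 68.99 in WT, a 14.2-fold difference without overlap (log2 difference 3.62, adjusted p = 7.3e-12). In untreated cells its log2 change was 0.46 (adjusted p = 0.087), and the genotype difference itself changed between 0 and 18 h (3.16, adjusted p = 2.8e-08). Msi2, an RNA-binding regulator of translation, held 1946, 2097 and 1808 tags in KO and 259.1, 326.5 and 273.9 in WT. Here the KO values were 6.81-fold higher (log2 difference 2.73, adjusted p = 1.9e-11), and Pol II regions covered 140.5 kb of the gene in KO but 16.9 kb in WT. Intu, an effector of planar cell polarity, held 587.0, 604.1 and 624.2 tags in KO and 83.18, 89.35 and 83.48 in WT, 7.09-fold apart without overlap (log2 difference 2.69, adjusted p = 4.5e-09). These 3 genes lie on different chromosomes, at chr16:58408443-58469727 (Dcbld2), chr11:88339382-88718513 (Msi2) and chr3:40531286-40704774 (Intu).

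Some of the remaining large increases rested on small values. Kynu, which encodes kynureninase of tryptophan breakdown, held 130.5, 114.1 and 137.0 tags in KO and 7.28, 13.95 and 12.21 in WT, so the WT libraries were near the lower limit (log2 difference 2.71, adjusted p = 4.3e-09). AL607142.1, a gene without an assigned function, held 82.7, 89.8 and 55.0 tags in KO and had no region in any WT library. Ide, the insulin-degrading enzyme, held 127.9, 175.5 and 181.1 tags in KO and 7.46, 0 and 9.86 in WT, but the KO input library held 314 tags over the gene and the WT input 60.4, so its Pol II value was below the input of its own genotype. The other genes of this rank took their tags mainly from regions that reach in from beside the gene. Fam3b, which lies near the interferon-induced Mx1, held 9430, 8800 and 9341 tags in KO and 410.3, 372.1 and 591.6 in WT and drew 99.9% of its KO mean from regions lying mostly outside its window, and Gm4841 and 1700025C18Rik drew 100% from such regions. With only regions at least 50% inside the window counted, the log2 change turned from 4.32 to -4.34 for Fam3b and from 2.81 to -2.29 for Gm4841, and 1700025C18Rik could not be tested.

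The largest decreases in KO included genes of surface receptors, an adaptor and a matrix protein. Fcgr2b, the inhibitory Fc gamma receptor, held 199.6, 207.2 and 182.0 normalized tags in KO and 1293, 1272 and 1286 in WT. The groups stood 6.54-fold apart (log2 difference -2.65, adjusted p = 2.6e-13), and the difference was -0.36 in untreated cells. The input over Fcgr2b held 0 tags in KO and 195.5 in WT. Without regions that overlap an input region its change turned to 0.59 (adjusted p = 0.28). Sh2d1b1, an adaptor of Slam family receptors, was listed at 0 in KO and at 73.1, 83.2 and 96.3 tags in WT. Cysltr2, a receptor for cysteinyl leukotrienes, was listed at 0 in KO and at 49.1, 56.0 and 65.5 in WT, with 0 input tags in KO and 35.3 in WT. Vipr2, a receptor for vasoactive intestinal peptide, held 0, 11.6 and 0 tags in KO and 165.6, 159.6 and 181.9 in WT (log2 difference -3.79, adjusted p = 1.7e-09). Tgfbi, an extracellular matrix protein induced by TGF-beta, held 10.5, 0 and 6.89 tags in KO and 204.1, 176.3 and 162.1 in WT (log2 difference -3.65, adjusted p = 5.8e-09), and did not differ detectably in untreated cells (log2 difference 0.08, adjusted p = 0.93). For these 5 receptor, adaptor and matrix genes no KO library reached a WT library, which for all but Fcgr2b was a condition of being named.

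Further genes among the largest decreases also have limits of input or of regions beside the gene. Fcrl1, an Fc receptor-like gene, held 0, 5.65 and 0 tags in KO and 148.1, 189.8 and 138.9 in WT (log2 difference -3.85, adjusted p = 8.2e-10), with 0 tags in the KO input and 153 in the WT input. Trim5 held 22.03, 35.5 and 23.1 tags in KO and 438.6, 480.5 and 467.5 in WT (log2 difference -3.70, adjusted p = 1.3e-12), with 93.8% of the WT mean from regions lying mostly outside its window, and counting only regions at least 50% inside left a change of -0.0089. Fcrl5 fell by 2.27 on the log2 scale (749.9, 754.1 and 275.7 tags in KO against 2620, 2634 and 2687 in WT), yet it stood at 2.99 when only regions at least 50% inside were counted. Ifitm6, which showed a log2 change of -2.52 as deposited, likewise turned to 2.18. Golph3l, a Golgi protein, held 113.5, 114.4 and 102.0 tags in KO and 600.9, 828.5 and 861.5 in WT (log2 difference -2.67, adjusted p = 3.6e-07) and kept a change of -1.62 in that setting. Hormad1, a meiotic gene beside Golph3l, Pfdn6, a prefoldin subunit, and Treml1, a receptor best known from platelets, drew 100%, 100% and 93.2% of their WT means from such regions, so their changes of -3.91, -2.46 and -3.54 cannot be told apart from those of their neighbours. With only regions at least 50% inside, Treml1 stood at -0.20 (adjusted p = 0.87).

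**Figure D2:**
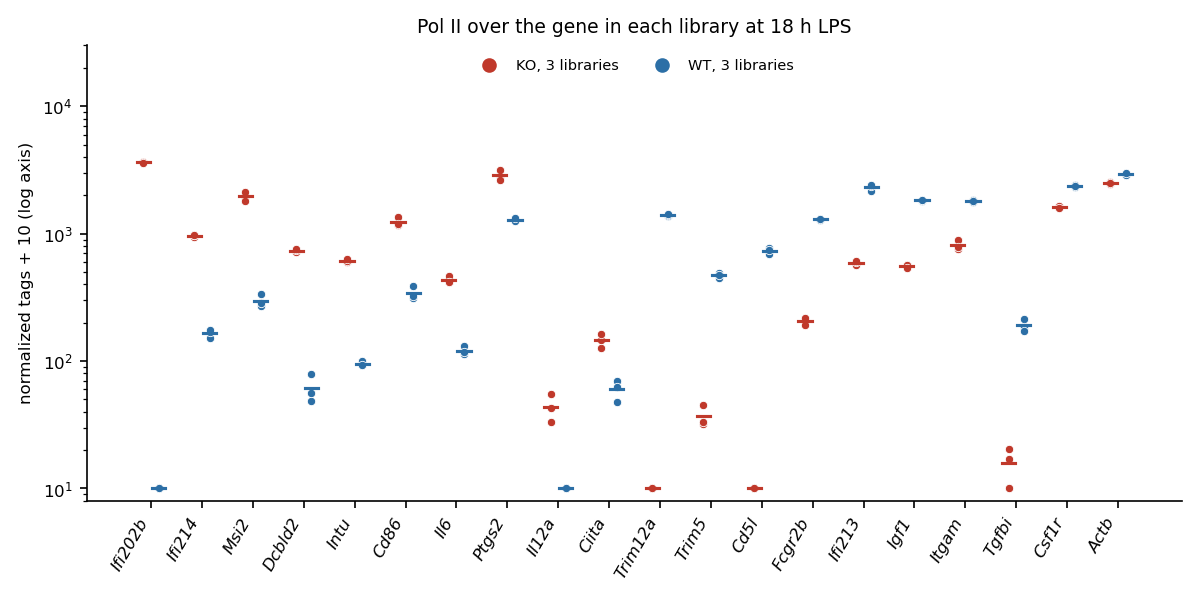
Normalized tags + 10 (log axis) of 20 genes in each of the 3 KO (red) and 3 WT (blue) libraries at 18 h, where short bars are group means and a gene listed at 0 sits at 10. KO and WT do not overlap for any gene shown, from Ifi202b, at 3582 to 3650 tags in KO, to the reference gene Actb, at 2426 to 2541 in KO and 2857 to 2987 in WT.

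Several late inflammatory genes carried more Pol II in KO. Of 14 tested members of a list of cytokines and effectors, 8 were higher, 0 lower and 6 did not pass, where 7.56% of all tested genes were higher, with a median change of 0.74 against -0.10 for all genes, and after centring 9 were higher and 0 lower. Il6 held 457.2, 409.8 and 408.5 normalized tags in KO and 103.7, 121.9 and 106.8 in WT. Each KO library was above each WT library, 3.84-fold on average (log2 difference 1.85, 95% confidence interval 1.65 to 2.06, adjusted p = 3.0e-10), and in untreated cells the gene was listed at 0 in both genotypes. Il12a, a subunit of interleukin 12, held 45.6, 33.2 and 23 tags in KO and had no region in any WT library. Marco, a scavenger receptor induced by LPS, held 27.7, 31.2 and 63.9 tags in KO and also had no region in any WT library. Lcn2, an iron-sequestering antibacterial protein, held 59.0, 51.8 and 55.9 tags in KO and 24.8, 17.6 and 21.1 in WT (log2 difference 1.08, adjusted p = 0.00097). Il12b and Csf3 were listed at 0 in all 6 libraries.

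Of 10 tested early LPS genes, 4 were higher, 1 was lower and 5 did not pass, with a median change of 0.25 (6 and 0 after centring). Of all tested genes 7.56% were higher and 13.4% lower, against 15.3% and 7.75% after centring. Ptgs2, the cyclooxygenase of prostaglandin synthesis, held 2805, 2622 and 3164 normalized tags in KO and 1266, 1255 and 1321 in WT, 2.24-fold apart without overlap (log2 difference 1.15, adjusted p = 0.00022). In untreated cells its log2 difference was -0.50. Tnfaip3, the ubiquitin-editing inhibitor of NF-kB, held 3661, 3763 and 3733 tags in KO and 2702, 2666 and 2836 in WT (log2 difference 0.44, adjusted p = 7.4e-05). The 1 lower member was the immediate-early factor Egr1.

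The transcription factors of the response were divided. Of 14 NF-kB subunits and inhibitors, 6 were higher and 2 lower (10 and 0 after centring). For these lists the shares of all tested genes were 7.56% higher and 13.4% lower, and 15.3% and 7.75% after centring. Nfkb1, the p105 precursor of p50, held 2625, 2636 and 2493 normalized tags in KO and 1595, 1539 and 1501 in WT, 1.67-fold apart (log2 difference 0.74, adjusted p = 8.7e-06). Rel rose by 0.43 and Nfkb2 by 0.36, and their KO and WT libraries did not overlap. Of 15 AP-1 factors, 2 were higher and 7 lower, with a median change of -0.22, and after centring 3 were higher and 3 lower with a median of -0.079, so the balance of members past the test depends on the scaling while both medians lay below 0 and below those of all genes (-0.10 and 0.035). With only regions at least 50% inside the gene window, 3 were higher and 2 lower of 11 tested (7.42% and 9.60% of all genes tested there). The median was then -0.083, against -0.093 for all genes. Jdp2, a dimerization partner that represses AP-1, held 3130, 3158 and 3048 tags in KO and 1503, 1457 and 1529 in WT, 2.08-fold higher in KO (log2 difference 1.05, adjusted p = 4.6e-08). Jdp2 had been lower in KO in untreated cells (log2 difference -0.34, adjusted p = 0.020) and at 1 h of LPS (-0.56, adjusted p = 4.8e-05). Fosl1, a Fos family subunit at low level, held 6.37, 1.69 and 7.73 tags in KO and 42.1, 30.1 and 19.0 in WT (log2 difference -1.38, adjusted p = 0.00043), and with only regions at least 50% inside the gene window it stood at -0.80 and missed the test (adjusted p = 0.099). Fos itself fell by 0.47 as deposited (adjusted p = 0.0064), missed the test after centring (adjusted p = 0.054) and stood at 3.53 when only regions at least 50% inside the gene window were counted. Of 15 Toll-like receptor genes and co-receptors, 5 were higher and 1 lower, and Tlr11 was listed at 0 in WT and at 6.8 to 9.58 tags in KO.

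Interferon-response genes and GTPases of cell-autonomous immunity were raised in part. Of 25 interferon-response genes, 6 were higher and 0 lower, with a median of 0.16, and 11 were higher after centring (7.56% and 15.3% of all tested genes). Only 9 could be tested with regions at least 50% inside the window, of which 1 was higher and 1 lower, where 7.42% of all genes tested in that setting were higher and 9.60% lower. Ifit1, an antiviral RNA-binding protein, held 5173, 4924 and 5458 normalized tags in KO and 3346, 3068 and 3455 in WT (log2 difference 0.66, adjusted p = 2.0e-05). Ifih1, the RNA sensor MDA5, held 4104, 4247 and 4235 tags in KO and 2793, 2744 and 2772 in WT (log2 difference 0.60, adjusted p = 0.00019). Oasl2, an oligoadenylate synthetase-like protein, rose by 0.40 (adjusted p = 0.0042). Of 18 GBP and IRG GTPases, 14 were higher and 1 lower, with a median of 0.56, and when only regions at least 50% inside a window were counted 10 were higher and 4 lower of 16 tested. Gbp10 held 65.3, 56.2 and 62.7 tags in KO and 20.4, 30.6 and 23.4 in WT (log2 difference 1.05, adjusted p = 1.3e-05). Gbp7 held 4322, 1485 and 4555 tags in KO and 1157, 1162 and 1121 in WT (log2 difference 1.42, adjusted p = 0.0010), and 1 KO library lay close to WT. Gbp genes lie side by side and are close paralogs, and Gbp2b (log2 difference 1.17) and Gbp7 drew 71.6% and 85.7% of their KO means from regions lying mostly outside their windows, with Gbp2b at 2.39 and Gbp7 at -4.45 when those were left out.

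In the Ifi200 family, members next to each other on chromosome 1 went in opposite directions. Of 12 tested members, 4 were higher and 2 lower as deposited and after centring, where 7.56% and 15.3% of all tested genes were higher and 13.4% and 7.75% lower. The median was 0.12, and with only regions at least 50% inside 6 were higher and 2 lower of 11, with a median of 0.89. Ifi214 held 929.9, 972.8 and 961.4 normalized tags in KO and 143.1, 159.3 and 166.7 in WT, 6.10-fold higher in KO (log2 difference 2.54, adjusted p = 1.4e-08). Ifi213 held 555.9, 592.0 and 596.8 tags in KO and 2150, 2354 and 2413 in WT, 3.96-fold lower in KO (log2 difference -1.97, adjusted p = 3.0e-09). Ifi203 held 4744, 4662 and 4779 tags in KO and 2332, 2370 and 1530 in WT (log2 difference 1.21, adjusted p = 1.8e-06). Ifi214 and Ifi203 were also higher and Ifi213 lower in untreated KO cells, with log2 changes of 0.95, 1.30 and -0.93. At 1 h of LPS Ifi203 was lower in KO (log2 change -1.73, adjusted p = 1.6e-08), while Ifi214 (1.58) and Ifi213 (-4.13) kept their direction. In the Trim5, Trim12 and Trim30 cluster on chromosome 7, 6 of 10 tested members were lower and 2 higher, with a median of -0.61, against 3 and 3 of 9 when only regions at least 50% inside were counted. Trim6 held 16.2, 27.9 and 14.0 tags in KO and 45.5, 89.1 and 70.2 in WT (log2 difference -1.40, adjusted p = 3.4e-05), and Trim30b showed -1.24 as deposited and 2.55 in that setting.

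Some antigen presentation genes of MHC class II were higher in KO, at low levels. Of 11 tested members, 5 were higher, 1 was lower and 5 did not pass, with a median of 0.27 (of all tested genes 7.56% were higher), and the same numbers were found with only regions at least 50% inside the window. Ciita, the master regulator of class II transcription, held 116.6, 136.8 and 151.9 normalized tags in KO and 37.7, 59.7 and 52.4 in WT (log2 difference 1.29, adjusted p = 0.00042), and in untreated cells it had been lower in KO (log2 difference -1.17, adjusted p = 0.0030). H2-Ab1, the class II beta chain, held 141.3, 126.6 and 117.8 tags in KO and 52.5, 56.9 and 63.5 in WT (log2 difference 1.03, adjusted p = 6.9e-05). H2-Aa, its alpha chain, rose by 1.07 (adjusted p = 0.0012) and H2-Eb1 by 0.79 (adjusted p = 0.0039). Ctss, the cathepsin that trims the invariant chain, was the member with the most Pol II per kb and was lower in KO, with 5385, 5532 and 6043 tags against 8367, 8150 and 8648 in WT (log2 difference -0.57, adjusted p = 1.2e-06). Of 17 class I genes, 4 were higher and 1 lower, with the peptide-trimming aminopeptidase Erap1 at 0.57 (adjusted p = 0.0021) and H2-M3, which presents formylated peptides, at 0.44 (adjusted p = 0.0084).

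Among genes of macrophage identity and of uptake, more members were lower than higher in KO as deposited, where 13.4% of all tested genes were lower. Of 8 macrophage markers, 6 were lower and 1 higher (4 and 1 after centring), and their summed level was 35000 to 36310 normalized tags in the KO libraries and 41320 to 41940 in WT. Itgam, the integrin CD11b, held 746.2, 878.2 and 777.8 tags in KO and 1751, 1844 and 1794 in WT, 2.24-fold lower in KO (log2 difference -1.16, adjusted p = 1.0e-07), and did not pass the test in untreated cells (log2 difference 0.15, adjusted p = 0.45). Csf1r, the receptor of the macrophage growth factor M-CSF, held 1648, 1644 and 1567 tags in KO and 2383, 2307 and 2354 in WT (log2 difference -0.53, adjusted p = 3.4e-06). Lyz2, lysozyme, fell by 0.74 (adjusted p = 6.5e-05), with 100% of the WT mean from regions reaching beyond its short window, and turned to 6.30 when only regions at least 50% inside were counted. The mannose receptor gene Mrc1 fell by 0.66, but its WT input held 528 tags against a WT Pol II mean near 107.4. Of 13 scavenger and efferocytosis receptors, 3 were higher and 6 lower under both scalings, with a median of -0.46, and with only regions at least 50% inside the window 4 were higher and 4 lower of 12, with a median of -0.25. Msr1, the class A scavenger receptor, held 3806, 3737 and 3817 tags in KO and 5425, 5481 and 5649 in WT (log2 difference -0.54, adjusted p = 4.5e-06), as in untreated cells (log2 difference -0.69, adjusted p = 8.1e-07). Gas6, the bridging ligand of efferocytosis receptors, fell by 0.83 (adjusted p = 0.0044). Its receptor Axl went the other way, with 121.8, 134.7 and 142.7 tags in KO and 83.93, 72.25 and 76.25 in WT, without overlap (log2 difference 0.71, adjusted p = 0.00038).

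The Fc gamma receptor and Slamf genes, most of which lie on the distal part of chromosome 1, counted 2 higher and 8 lower of 14, with a median of -0.27, and 3 higher and 5 lower after centring, beside 7.56% higher and 13.4% lower, and centred 15.3% and 7.75%, of all tested genes. Fcgr4, an activating receptor, held 377.1, 391.9 and 399.0 normalized tags in KO and 767.7, 715.5 and 742.9 in WT (log2 difference -0.91, adjusted p = 3.9e-06), with -0.84 in untreated cells. Slamf9 was higher, with 326.1, 283.1 and 304.1 tags in KO and 187.7, 188.7 and 180.0 in WT (log2 difference 0.68, adjusted p = 9.0e-05), with 100% of the KO mean from regions lying mostly outside its window. It had been lower in KO in untreated cells (log2 difference -0.42, adjusted p = 0.017) and at 1 h of LPS (-0.54, adjusted p = 0.00046). Fcgr2b, Fcgr3 and Fcgr4 are close in sequence, and tags may be shared between them.

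The remaining functional groups are given beside the 7.56% of all tested genes that were higher and the 13.4% that were lower as deposited (15.3% and 7.75% after centring), and their medians lay between -0.21 and -0.055, where that of all genes was -0.10. Of 14 macrophage lineage factors 0 were higher and 6 lower as deposited, against 3 higher and 4 lower after centring. Of 11 tested chemokine genes 2 were higher and 2 lower, with Ccl6 at -0.54 (adjusted p = 0.00070). Of 12 LXR and cholesterol efflux genes 0 were higher and 4 lower, and 2 and 2 after centring. Pltp, the phospholipid transfer protein, held 1259, 1182 and 1284 tags in KO and 2316, 2452 and 2304 in WT (log2 difference -0.92, adjusted p = 2.5e-08), and the neighbouring lysosomal gene Ctsa changed by a similar -0.91 since both windows lay in the same region. Scd2, a fatty acid desaturase, fell by 0.66 (adjusted p = 0.0041). Of 20 lysosome genes 2 were higher and 6 lower, with the protease Ctsd at -0.48 and the membrane protein Lamp2 at 0.49. Of 19 glycolysis and pentose phosphate genes 3 were higher and 3 lower, with the phosphofructokinase gene Pfkp at 0.68 (adjusted p = 6.8e-06), Pfkfb3, which makes its activator, at 0.31 and the pyruvate kinase Pkm at -0.32. Of 19 sterol synthesis genes 0 were higher and 2 lower, of 20 respiratory chain genes 0 and 4, of 20 ribosomal protein genes 0 and 2, and of 17 feedback regulators 1 and 3.

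Of 18 replication and mitosis genes 0 were higher and 4 lower as deposited and 0 and 2 after centring, with medians of -0.23 and, centred, -0.092, beside 7.56% higher and 13.4% lower of all tested genes (15.3% and 7.75% centred). Pcna, the clamp of DNA polymerases, held 485.8, 478.3 and 469.2 normalized tags in KO and 664.1, 693.1 and 711.1 in WT (log2 difference -0.52, adjusted p = 6.1e-06). Bub1, of the spindle checkpoint, fell by 0.67 at 7.43 to 21.1 tags, below the 242 tags of its WT input. Of 16 actin and SRF target genes 1 was higher and 5 lower, and 2 and 2 after centring, with Tpm1, a tropomyosin, at -0.71 (adjusted p = 4.9e-05) and Tagln2 at -1.12, which turned to 3.94 when only regions at least 50% inside were counted. Of the 6 reference genes, Actb (log2 difference -0.23, adjusted p = 0.021) and Gapdh (-0.27, adjusted p = 0.021) fell as deposited and missed the test after centring (adjusted p = 0.46 and 0.22). Leaving out 1 library ended the calls of Actb and Gapdh in 4 cases each, with adjusted p up to 0.071 and 0.076. Hprt stood at -0.39, Tbp at -0.22, Ppia at -0.12 and Rplp0 at 0.11, and none of these 4 passed under either scaling.

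A set of named list members passed the test as deposited but not with every library left out in turn. Tnf, the tumour necrosis factor gene, held 2920, 3002 and 3646 normalized tags in KO and 2636, 2542 and 2653 in WT (log2 difference 0.28, adjusted p = 0.042), and without KO replicate 3 its adjusted p was 0.23. The chemokine gene Cxcl2 (log2 difference 0.35, 0.15 without KO replicate 3), the immediate-early factor Egr1 (-0.45, 0.080 without KO replicate 3) and the chemokine gene Ccl5 (0.60, 0.068 without KO replicate 3) lost the call likewise, each with the adjusted p named. Cmpk2, a nucleotide kinase induced by interferon, held 16070, 15390 and 18080 tags in KO and 8129, 14200 and 14040 in WT, and its change of 0.49 was 0.22 without WT replicate 1 (adjusted p = 0.16). H2-D1, a class I heavy chain, held 2566, 1099 and 1066 tags in KO and 2563, 2491 and 2614 in WT, so 1 KO library lay among the WT libraries, and its change of -0.82 lost the call without KO replicate 2 or 3 (highest adjusted p = 0.065). For Gbp4 (0.82), the class I gene H2-Q6 (0.51) and the mitotic kinase Cdk1 (-0.65) the call was lost without any single library, with adjusted p up to 0.091, 0.12 and 0.11. The Toll-like receptor genes Tlr3 (0.38) and Tlr13 (-0.58), the hexokinase gene Hk1 (0.32), the chemokine gene Ccl7 (-0.39), the proliferation marker Mki67 (-0.33), the lipogenic factor Srebf1 (-0.29) and the tropomyosin gene Tpm4 (0.26) lost it without 4 or 5 of the libraries, with adjusted p up to 0.078, 0.078, 0.093, 0.12, 0.13, 0.11 and 0.27. Slamf1 (0.70) lost it without KO replicate 1 or WT replicate 3 (up to 0.082) and Ly96, the MD-2 co-receptor of LPS, (0.40) without WT replicate 2 (0.051). Gbp4 also drew 100% of its KO mean from regions lying mostly outside its window and turned to -7.02 without them.

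**Figure D3:**
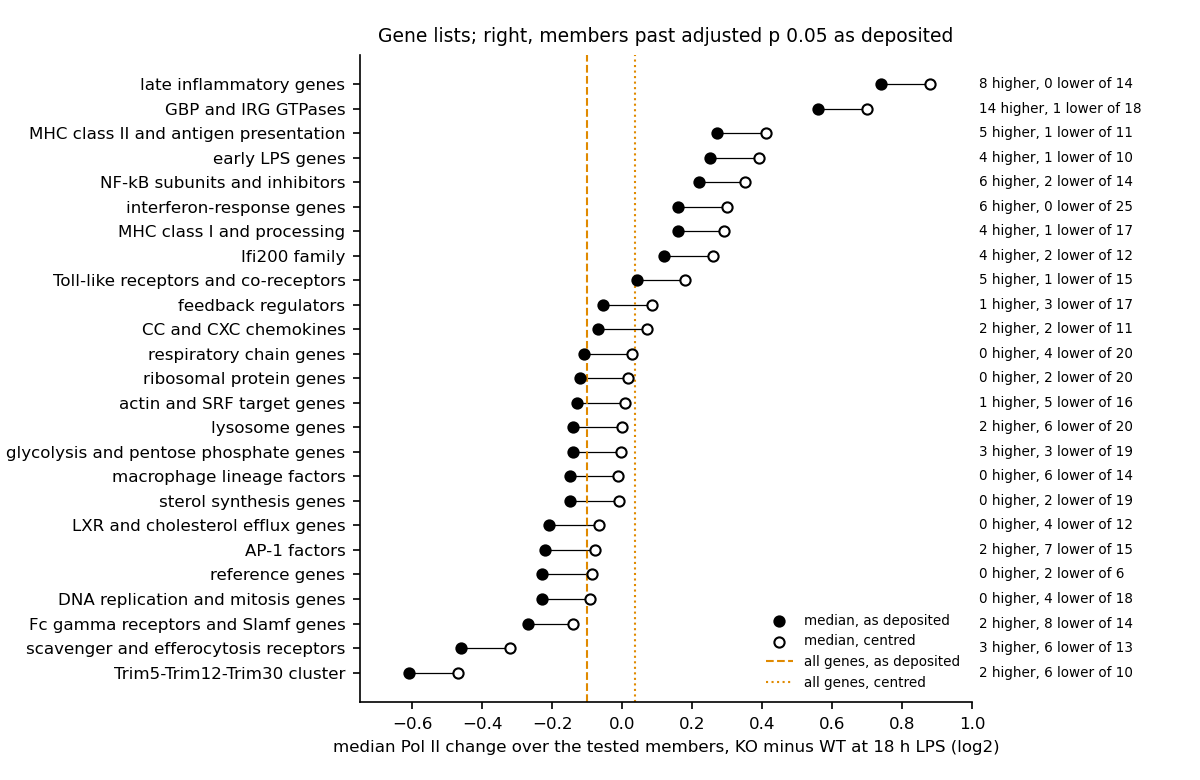
Median Pol II change between KO and WT at 18 h (log2) over the tested members of 25 gene lists, as deposited (filled circles) and after centring (open circles), with the medians of all tested genes as dashed (-0.10) and dotted (0.035) lines and the members past the adjusted p at the right. Late inflammatory genes (0.74) and GBP and IRG GTPases (0.56) have the highest medians, and the Trim5, Trim12 and Trim30 cluster (-0.61) the lowest.

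Several defining markers of other cell types had no Pol II region, while other members of the same lists had one. The 6 stromal markers, including Col1a1 and Pdgfra, were listed at 0 in every library, as were Pax5 of B cells, Cd3e and Cd3g of T cells, Mpo, Elane and Ly6g of granulocytes and Hba-a1 and Hbb-bs of red cells. The 8 neutrophil markers summed to 0 to 15.1 normalized tags in KO and 13.7 to 27.2 in WT, the 7 T and NK cell markers to 169 to 177 and 178 to 190, the 6 B cell markers to 132 to 138 and 148 to 183, and the 6 erythroid and megakaryocyte markers to 101 to 136 and 130 to 135. The dendritic cell markers, of which Flt3, Siglech and Clec9a were listed at 0, summed to 408 to 962 in KO and 382 to 461 in WT. Most of this sum was Xcr1, with 913.7, 605.7 and 357.2 tags in KO and 388.1, 311.6 and 364.5 in WT (log2 difference 0.71, adjusted p = 0.024), of which 96.4% of the KO mean came from regions lying mostly outside its window, and it turned to -1.12 with only regions at least 50% inside. Of the other markers Cd3d (-0.34, adjusted p = 0.049) and Ms4a1 (-0.65, adjusted p = 0.044) were lower in KO as deposited and not past the test after centring (adjusted p = 0.24 and 0.11). Leaving out any single library also ended both calls, and 4 of the 6 ended that of Xcr1 (adjusted p up to 0.13 without KO replicate 1). Per kb, Xcr1 at 45.7 and Gp9 at 32.0 normalized tags lay above 23.6, the lower bound of the top quartile of tested genes. The part of other cells in the results was not tested.

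In the regions as listed, the called differences were mainly differences in how much of a gene was covered. A stretch below the threshold of the region search is lost from both the covered length and the tags. The split between length and tags per covered kb thus depends on that threshold, and the density along whole genes was not measured. For genes called higher, the median covered length was 4.44 kb in KO and 1.72 kb in WT, and among the 172 that were listed in both groups the median log2 change was 1.30 for covered length and 0.35 for tags per covered kb. For genes called lower, the covered length was 1.94 kb in KO and 4.84 kb in WT, and the medians over 170 genes were -1.20 for length and -0.26 for tags per covered kb. Within 500 bp of the gene start, 116 of the 204 higher genes could be tested, of which 52 were higher and 1 lower, with a median of 0.47 against 1.30 over the whole gene. Of the 190 lower genes, 137 could be tested at the start, and 56 were lower and 1 higher, with a median of -0.50 against -1.30. Over all 10748 genes tested at the start, 225 were higher and 292 lower, with a median of -0.027. The start of Msi2 changed by -0.22 (adjusted p = 0.54) while the gene as a whole changed by 2.73, and the start of Intu by -0.10 (adjusted p = 0.89) against 2.69. Of 105 named genes with a value at the start 15 turned direction there, the others being Cd86, Erap1, Gas6, Gp9, Igf1, Itgam, Ly96, Pfkfb3, Pfkp, Slc7a2, Tbp, Tfec and Tlr3. Genes called higher were also long, with a median length of 51.8 kb against 19.4 kb for genes called lower, and the longest quartile of genes held 100 higher and 48 lower calls (4.63% of its genes).

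The 18 h differences were set beside those of the earlier times. Of the 394 genes called at 18 h, 37 were also called in the same direction in untreated cells and 3 in the opposite direction, and 58 were called in the same direction at 1 h of LPS. Of all 12795 tested genes, 112 (0.875%) were called at 0 h in either direction, and at 1 h 512 were called, 2.94% of all tested genes higher and 1.06% lower. A test of the genotype difference at 18 h against that at 0 h passed the adjusted p for 298 of the 394 genes, in 295 of them with the sign of the 18 h difference, and for 15.1% of all tested genes. These counts share the 18 h libraries with the calls, and choosing genes by a large 18 h difference favours an interaction of the same sign, so they are descriptions. Genes that LPS had raised at 1 h in WT held 69 higher and 12 lower calls at 18 h (6.36% of 1274). Genes that LPS had lowered at 1 h held 35 higher and 131 lower calls (3.07% of 5414), and genes without a call at 1 h held 49 and 43 (1.59% of 5797). The median change at 18 h was 0.12, -0.19 and -0.077 in these classes. Among 310 genes without enough regions for a test at 1 h, 51 were higher and 4 lower (17.7%). The 1 h classes rest on WT libraries at 0 and 1 h, which do not enter the 18 h comparison as samples, and the difference between the classes was not tested.

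H3K27ac, an acetyl mark of active promoters and enhancers measured in separate libraries of the same genotypes and time, was compared at gene starts. Within 2500 bp of the start, 80 of 11452 genes were called (0.699%, 43 higher and 37 lower), where Pol II within 500 bp of the start gave 73 calls of 10748 (0.679%). With 1 library left out the H3K27ac calls ranged from 59 to 152, the latter without KO replicate 2. As deposited, 367 genes passed the adjusted p for H3K27ac (3.20%, with 0.952% higher and 2.25% lower). Among the genes called higher for Pol II, 134 could be tested for H3K27ac, where 33 were higher and 1 lower and 125 (93.3%) had a change above 0, with a median of 0.47. Among the genes called lower for Pol II, 40 of 144 were lower and 0 higher, and 12 (8.33%) had a change above 0, with a median of -0.47. Over all 10960 genes tested for both, 42.6% had a change above 0 and the median was -0.040. Trim12a changed by -7.06 (adjusted p = 1.2e-17, with KO listed at 0), Trim5 by -4.32 (adjusted p = 1.5e-12), Cd5l by -3.87 (adjusted p = 4.8e-07), Ifi202b by 3.45 (adjusted p = 6.1e-07, with WT listed at 0) and Fcgr2b by -1.79 (adjusted p = 6.4e-08). At Dcbld2 (1.27, adjusted p = 0.0025) and Intu (1.10, adjusted p = 0.0021) the mark was higher in KO as well, whereas at Il6 (0.57, adjusted p = 0.14) and Msi2 (0.40, adjusted p = 0.053) it did not pass. Ifi203 was the 1 gene called higher for Pol II with the mark lower, with Pol II at 1.21 and H3K27ac at -0.81 (adjusted p = 0.0040). Nfkb1, which was below the size threshold of a call, also went the other way, with Pol II at 0.74 and H3K27ac at -0.84 (adjusted p = 0.0029). The H3K27ac library of KO replicate 1 held 55.4 M tags and the others 15.0 to 33.4 M.

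**Figure D4:**
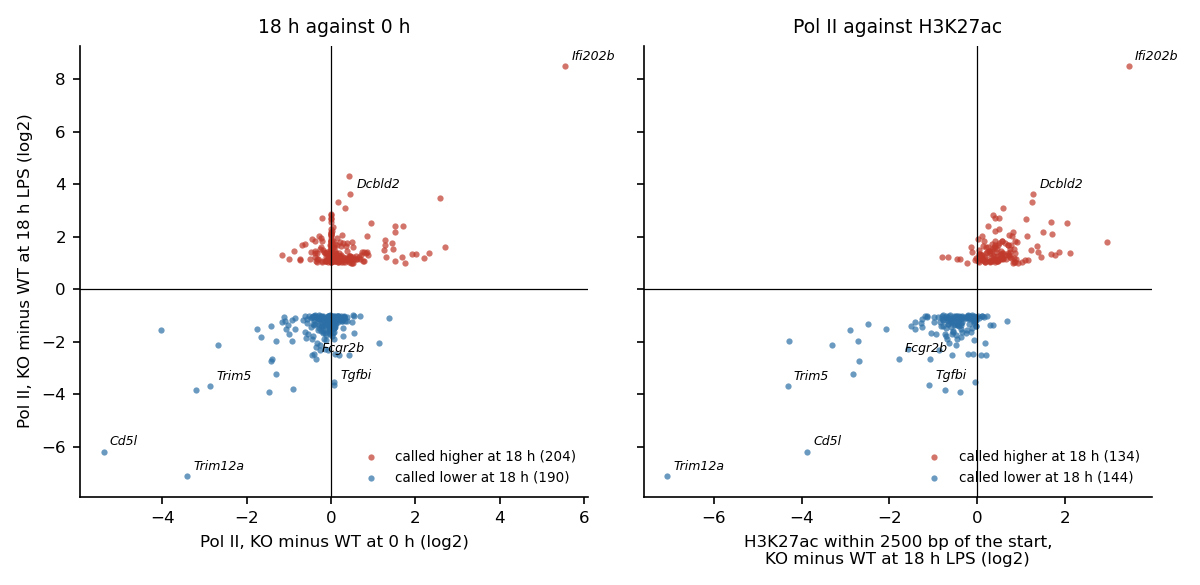
Pol II change between KO and WT at 18 h (log2, vertical) for genes called at 18 h, against the Pol II change in untreated cells on the left and the H3K27ac change within 2500 bp of the gene start at 18 h on the right (log2, horizontal), with red for genes called higher and blue for genes called lower. On the left Ifi202b (5.56) and Cd5l (-5.39) lie farthest from 0 on the horizontal axis, and on the right 125 of 134 higher genes lie above 0 and 132 of 144 lower genes below 0.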

How the data were processed

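Chromatin immunoprecipitation with sequencing for Pol II was analysed in 3 KO and 3 WT libraries at 18 h of LPS, together with the 12 Pol II libraries at 0 and 1 h, the H3K27ac libraries and 1 input per genotype. Reads were trimmed (Skewer), mapped to mm10 (HISAT2 2.1.0) and freed of duplicates by the authors, who called broad regions in each library with HOMER. Per the file headers, windows of 500 bp with a Poisson p of 0.001 were stitched within 1000 bp, without an input control. The deposited values are a signal, tags per region scaled to 10 M tags (M, mega) of the library, and replicates were not pooled. Whole tags were not recoverable, so no count test was run.

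Regions were shared by overlap over each protein-coding gene of GENCODE vM21 with 500 bp on either side, after 54 genes with duplicated symbols were left out, and 33.7% of the windows overlapped another gene's. Genes listed above 0 in at least 2 of 3 libraries of KO or WT were tested on log2(tags + 10) with limma 3.58.1 in R 4.3.3, with the 18 Pol II libraries as 6 group means, a trended prior and Benjamini-Hochberg adjustment over all genes tested. Because 10 tags were added, fold changes of low genes are understated. Centring used the median over 10639 genes listed in all 18 libraries. H3K27ac was summed within 2500 bp of the start and tested alike. Tables and figures were made with Python 3.11.15, numpy 2.4.6, pandas 2.3.3 and matplotlib 3.10.9, and the scripts were tested on simulated data.

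Named genes were Nr4a1, the reference genes, the 10 largest changes in each direction among called genes without overlap and with a mean of at least 50 tags in the higher group, the 6 largest in each direction among genes above 0 in all libraries with a mean of at least 200 tags, and up to 4 changed members of each list with its member highest per kb. A gene whose window overlapped that of a gene already taken was skipped. The text gives most of these, and some items are not reported here. The comparison, gene lists and tests were chosen with earlier results of these data known. Igsf3, fixed by the same rule, was listed at 0 in all 6 libraries. Alternatives were other pseudocounts, filters, scaling, the gene start alone, regions free of input, the replicate block, each library left out, and, added after seeing the data, only regions at least 50% inside the window. Promoter sequences and positions came from RefSeq on GRCm38.p6, where 9978 of 12795 tested genes matched by symbol. Intervals cover the spread between libraries only.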

Additional observations from a re-analysis of the deposited data

Results flagged for a closer look

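For 24 of the 26 tested genes that were named for the largest changes, with Nr4a1 among them as the targeted gene, the difference between KO and WT at 18 h differed from that at 0 h in a test of the difference itself (limma, interaction of genotype and time, adjusted over all genes tested). Of all tested genes 15.1% passed this test. Apart from Nr4a1, the 26 genes were picked for a large 18 h difference, which favours an interaction of the same sign. The count is therefore a description. Each value below is the log2 change at 18 h minus the log2 change at 0 h, on the log2(normalized tags + 10) scale. Among genes that were higher in KO at 18 h it was 3.91 for Fam3b, 3.16 for Dcbld2, 2.94 for Ifi202b, 2.94 for Msi2, 2.88 for 1700025C18Rik, 2.81 for Gm4841, 2.75 for AL607142.1, 2.71 for Kynu and 2.69 for Intu. Of these, Ifi202b was already higher in KO at 0 h.

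Among genes that were lower in KO at 18 h the value was -3.73 for Tgfbi, -3.73 for Trim12a, -3.61 for Treml1, -2.88 for Vipr2, -2.54 for Pfdn6, -2.43 for Hormad1, -2.29 for Fcgr2b, -2.13 for Fcrl5, -2.08 for Ifitm6, -1.93 for Sh2d1b1, -1.31 for Cysltr2, -1.28 for Golph3l, -0.831 for Trim5 and -0.803 for Cd5l. Trim12a, Trim5, Cd5l, Sh2d1b1, Cysltr2 and Golph3l were already called lower in KO at 0 h. For Nr4a1 the value was 0.731, with WT at 195 normalized tags at 0 h and 4.48 at 18 h and KO at 78.0 and 0. Several of these genes, among them Fam3b, Gm4841, 1700025C18Rik, Treml1, Pfdn6, Hormad1, Fcrl5, Ifitm6 and Trim5, took most of their tags from regions lying mostly outside their windows, and their part in the interaction was not tested. A further 83 named genes were tested, chosen as list members and largely by their 18 h change. Of these, 50 also passed, each with the sign of its 18 h difference, from -1.47 for Fosl1 to 2.46 for Ciita. Outside this count, Ifi209 and Cxcl10, each the member of its list highest per kb, passed with the opposite sign. Their interactions were 1.54 and 1.58, with 18 h differences of -0.31 and -0.091.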

How the results depend on the processing

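The number of called genes stayed within 1.5 times of 394 under quantile normalization (369), a fit of the 6 libraries alone (379) and a common density floor (398). With 1 library left out it ranged from 405 to 430, and with centring from 404 to 430. Genes called lower moved to 294 with a pseudocount of 1, to 123 without genes whose window overlaps another, and to 122 after centring, where a pseudocount of 1 gave 233 and a filter on all 6 libraries 78. A pseudocount of 50 left 149 genes (79 higher and 70 lower), and the 500 bp around the start left 73 (29 and 44). Counting only regions at least 50% inside gave 308 higher. H3K27ac calls fell to 47 (17 higher) within 500 bp of the start, and with 1 library left out they ranged from 59 to 152 (25 to 76 higher, 32 to 94 lower), with the highest total without KO replicate 2 and the fewest higher without WT replicate 1. The Nr4a1 difference of -0.493 missed the threshold in the fit of 6 libraries, with the replicate block, without input regions and with only regions at least 50% inside, and at -0.225 by quantile normalization, -0.121 with a pseudocount of 50 and -0.355 after centring, and ranged from -0.74 to -0.493 in the 4 of 6 cases that could be tested with 1 library left out. Leaving out any KO library ended the call (adjusted p = 0.089 to 0.099), and without WT replicate 1 or 2 the gene had too few libraries above 0 for a test.

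Whether replicate numbers pair the KO and WT libraries was not settled. Same-numbered libraries at 18 h deviated together with small r of 0.0602, 0.108 and 0.022. Every library but WT replicate 3 correlated best with its own number. The replicate block gave 395 called genes, 204 higher and 191 lower, and Nr4a1 stayed at -0.493 with an adjusted p of 0.072.

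Of 121 named genes, 84 reversed in none of the alternatives that gave them a value, and 45 also kept their side of the threshold there. Not every alternative gave a value: 105 genes had one at the start, 101 with the filter on all 6 libraries, 99 with only regions at least 50% inside, 98 without overlapping windows and 55 without input regions. Of the 32 genes with a value in all 19 alternatives, 14 never reversed and 3 kept direction and side of the threshold. Around the start alone, the change turned to -0.0229 for Erap1, 0.121 for Gas6, -0.103 for Intu, 0.0999 for Itgam, -0.268 for Ly96, -0.219 for Msi2, -0.137 for Pfkfb3, -0.176 for Pfkp, 0.0891 for Tbp, 0.280 for Tfec, -0.246 for Tlr3, -0.512 for Cd86, 0.516 for Igf1, 0.235 for Gp9 and -0.120 for Slc7a2, and the interaction with time to 0.420 for Fcrl1, -0.333 for Intu, -0.0500 for Msi2 and 0.356 for Trim5. Without regions that overlap an input region, where the remaining regions hold 5.02% of KO tags and 5.13% of WT tags, it turned to -1.75 for Ciita, 0.590 for Fcgr2b, -3.19 for Gm4841, -0.769 for H2-Eb1, -0.530 for Ifi214, 2.16 for Itgam, -0.480 for Ly96, 1.13 for Mki67, -3.56 for Nfkb1, -0.526 for Slamf1, 0.445 for Srebf1, 0.477 for Trim30b, 0.951 for C1qa, -1.53 for Cd86 and 0.794 for Igf1, and the interaction to 0.0916 for Fcgr2b, -3.19 for Gm4841 and -0.400 for Ide. With only regions at least 50% inside it turned to -4.34 for Fam3b, 2.99 for Fcrl5, 3.53 for Fos, -7.02 for Gbp4, -4.45 for Gbp7, -2.29 for Gm4841, 2.18 for Ifitm6, 6.30 for Lyz2, 3.94 for Tagln2, 2.55 for Trim30b, 0.951 for C1qa, -1.12 for Xcr1 and 4.50 for Ifi206. Centring turned Ppia to 0.0194 and Gp9 to 0.00731, leaving out 1 library gave -0.328 to 0.00801 for Gp9, which turned without KO replicate 2, and a pseudocount of 1 turned the interaction of Nr4a1 to -0.644 and of Trim5 to 1.91. The cause of these reversals was not tested. Values near 0 tags lie at the region search's lower limit, where reads below it are not listed.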

Other observations

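The following genes were chosen after their values were seen. Cd86, a costimulatory ligand of T cells, held 1150, 1349 and 1172 normalized tags in KO and 305.1, 317.1 and 379.9 in WT, and its KO and WT libraries did not overlap. Its direction turned at the start alone (-0.512, adjusted p = 0.0079) and without regions that overlap an input region (-1.53, adjusted p = 0.027). Slc7a2, a transporter of arginine, held 539.9, 545.5 and 556.1 tags in KO and 93.9, 130.2 and 163.3 in WT, and turned to -0.120 at the start. Near the lower limit, Ch25h, the cholesterol 25-hydroxylase that makes an antiviral oxysterol, was listed at 0 in WT and at 47.1, 47.4 and 50.7 tags in KO.

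Lower in KO was Igf1, an insulin-like growth factor, with 562.0, 562.8 and 531.4 normalized tags against 1799, 1835 and 1816 in WT, and its direction also turned at the start (0.516) and without input regions (0.794). At 1 h of LPS Igf1 was higher in KO (log2 difference 1.19, adjusted p = 1.3e-11). Lair1, an inhibitory receptor for collagen, held 195.7, 208.9 and 195.3 tags in KO and 631.9, 721.2 and 771.9 in WT. The chemokine receptor gene Ccr2 held 0, 24.2 and 20.5 tags in KO and 116.3, 114.0 and 116.9 in WT, below the 179 tags of its WT input. Ptpn22, a phosphatase of immune receptor signalling, held 53.2, 61.6 and 50.9 tags in KO and 188.2, 203.4 and 224.4 in WT, below the 387 tags of its WT input. C1qa, C1qb and C1qc, which encode the chains of complement C1q, lie side by side and drew 97.3%, 100% and 100% of their WT means from regions lying mostly outside their windows.

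Called genes lay together in 5 bins of 2 Mb that held at least 5 of them and 37 in all. On chromosome 1, 12 of 32 tested genes were called between 172 and 174 Mb, including Fcrl6, Aim2, Ifi206, Ifi214, Ifi213, Ifi203 and Ifi202b, with 3 higher and 9 lower, and 6 of 43 between 170 and 172 Mb, including Sh2d1b1 and Fcgr2b. On chromosome 7, 6 of 27 were called between 104 and 106 Mb, with 5 of them Trim genes. The other bins were on chromosome 3 between 94 and 96 Mb (7 of 52) and on chromosome 14 between 70 and 72 Mb (6 of 18). Within 5 Mb of Nr4a1 on chromosome 15, 0 genes were called higher and 5 lower of 109 tested (4.59%), against 3.08% of all tested genes and 3.29% of the 365 tested genes farther away on the chromosome. Neighbouring genes can share regions, and 19 of the 37 were also called with only regions at least 50% inside the window.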
